A study of Drosophila melanogaster with 12 samples.

Results

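Atilla and 4 other genes of the Ly6 family, CG9336, CG9338, twit and crok, were followed through the hemocyte libraries of the series, twit in all but the 48 hr ones. The 5 genes were taken by name, and their unique molecular identifiers (UMIs, the count of distinct RNA molecules captured) were summed per library and per cell cluster deposited by the authors. Of the 5 genes, 4 had a row among the 10392 genes of the merged count table, and twit, absent from it, had a row in the table of the earlier wasp time point and in the single 10X Chromium and inDrops matrices. A level in CPM is the UMI sum of a gene scaled to a total of 1000000 UMIs in the library or group of cells.

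Ly6 proteins are small cell surface proteins of the three-finger fold, held in the membrane by a lipid (GPI) anchor. In Drosophila larvae, most hemocytes are phagocytic plasmatocytes, a few are crystal cells that carry prophenoloxidases, and lamellocytes are large flat cells that appear after wounding or wasp infestation and encapsulate objects too large to engulf. Atilla, the L1 antigen, is the surface marker most used to recognise lamellocytes, whereas crok is known for the assembly of septate junctions in epithelia and twit as a target of the BMP receptor wit at the neuromuscular junction. CG9336, also named belly roll (bero), is known from peptidergic interneurons that act in nociception, and no role is given here to CG9338.

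Hemocytes were pooled from larvae that were unwounded, wounded, or infested with the parasitoid wasp Leptopilina boulardi. The 4 unwounded and 4 wounded libraries came from Hml>EGFP larvae (w;Hml-GAL4Δ, UAS-2X EGFP, in which the Hml driver labels most plasmatocytes), and wounded larvae were bled 24 hr after a prick with a tungsten needle, given at an age of 96 hr after egg laying (AEL). Replicates 1 and 2 of both groups were 10X Chromium libraries and replicates 3 and 4 were inDrops libraries. The 3 libraries of wasp inf. 24 hr and the 3 of wasp inf. 48 hr were Drop-seq libraries from Oregon R larvae infested at 72 hr AEL, bled at a labelled 96 and 128 hr AEL, and prepared without the Optiprep gradient used for the other groups, so that genotype, age, isolation and technology cannot be told apart from infestation when these are set against unwounded larvae. Each preparation was a pool of larvae, and unwounded and wounded larvae all carried the Hml driver and EGFP.

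The merged table held 19458 cells in 11 libraries (181 to 4013 cells, 623998 to 17452765 UMIs and a median of 1141 to 13689 UMIs per cell), and the 48 hr table held 7035 cells in 3 libraries (medians of 6477 to 7080 UMIs). Wasp inf. 24 hr replicate 1 was the smallest library with 181 cells, and unwounded replicate 4 held the fewest UMIs. Pairs of libraries shared 0 to 4 cell barcodes in 10X Chromium, 6 to 44 in inDrops and 0 or 1 in Drop-seq. Among the Drop-seq barcodes, 15.7% to 24.6% shared their first 10 bases with another barcode of the library, so a bead may be counted more than once as a cell there, while sums over a library are not touched. Plasmatocyte markers summed to 17170 to 32721 CPM in the Hml>EGFP libraries and 895 to 2494 CPM in the Drop-seq libraries. In the latter Col4a1 was at 0 in the merged table but had UMIs in the complete Drop-seq tables.

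The genes lie in 2 neighbourhoods of chromosome arm 2L (BDGP6 annotation). The crok gene covers bases 12172981 to 12174091 on the plus strand and atilla bases 12175451 to 12177886 on the minus strand, so that their 3' ends face each other across 1359 bases that hold no other annotated gene. The twit gene (bases 20852578 to 20857113), CG9336 (20858695 to 20861014) and CG9338 (20865215 to 20867709) lie in this order on the plus strand, 1581 and 4200 bases apart, with the annotated CR9337 between CG9336 and CG9338. Libraries of this kind are read from the 3' ends of transcripts, and whether reads of one neighbour were counted for the other was not tested.

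Atilla rose from a few CPM in unwounded larvae to more than 5000 CPM at 48 hr of infestation. The unwounded libraries held 0, 8.45, 3.84 and 19.2 CPM of atilla, where 3 UMIs in the first would have been 2.28 CPM. The wounded libraries held 250, 104, 78.9 and 46.8 CPM. In the complete Drop-seq tables atilla stood at 663, 288 and 681 CPM at 24 hr and at 5366, 6782 and 6179 CPM at 48 hr. Among the kept cells each of the 4 conditions was separate from the next. Over all deposited barcodes, kept or not, the wounded libraries stood at 269, 105, 417 and 58.3 CPM, so that wounded replicate 3 then lay above the lowest 24 hr library.

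**Figure D1:**
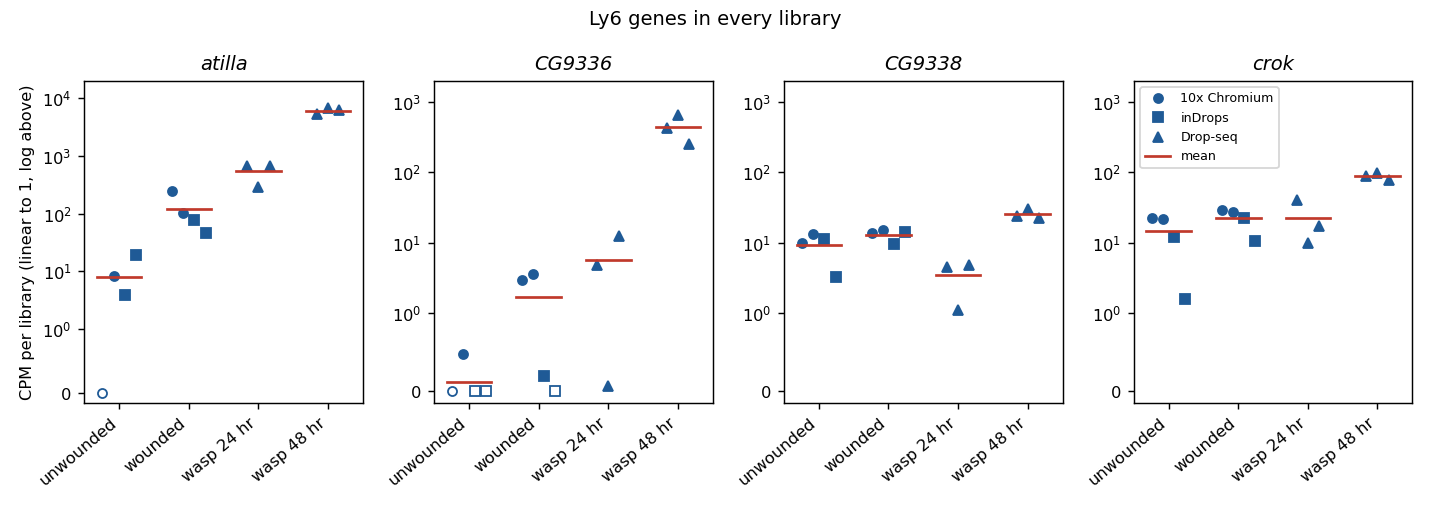
CPM of atilla, CG9336, CG9338 and crok (vertical axis, linear to 1 and logarithmic above) in each library of the 4 conditions, with the technology as the point shape, the mean as a line and libraries without a UMI as open points. Atilla climbs from at most 19.2 CPM in unwounded larvae to at least 5366 CPM at 48 hr, CG9336 is at or below 12.4 CPM before 48 hr and at 250 CPM or more there, and CG9338 and crok stay within a narrower range.

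Within the merged table, atilla lay chiefly in the clusters that the authors named lamellocytes, LM1 and LM2. As a description, since atilla was among the genes the cells were clustered on, it averaged 4650 ± 3976 CPM (SD, n = 6 libraries with at least 10 cells) in LM2 and 474 ± 676 CPM (n = 11) in LM1. The next cluster, the plasmatocyte cluster PM7, averaged 44.0 ± 81.3 CPM (n = 8), and the lowest, PM4, 2.91 ± 6.2 CPM (n = 8). LM2 held 1.40% of the merged cells and 49.0% of the 22892 atilla UMIs, and LM1 10.2% of the cells and 41.1% of the UMIs. Among libraries, LM2 ranged from 219 CPM in its 23 cells of unwounded replicate 3 to 8926 CPM in its 105 cells of wasp inf. 24 hr replicate 3. The order of the plasmatocyte and crystal cell clusters below LM1 did not go beyond their spread over libraries.

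**Figure D2:**
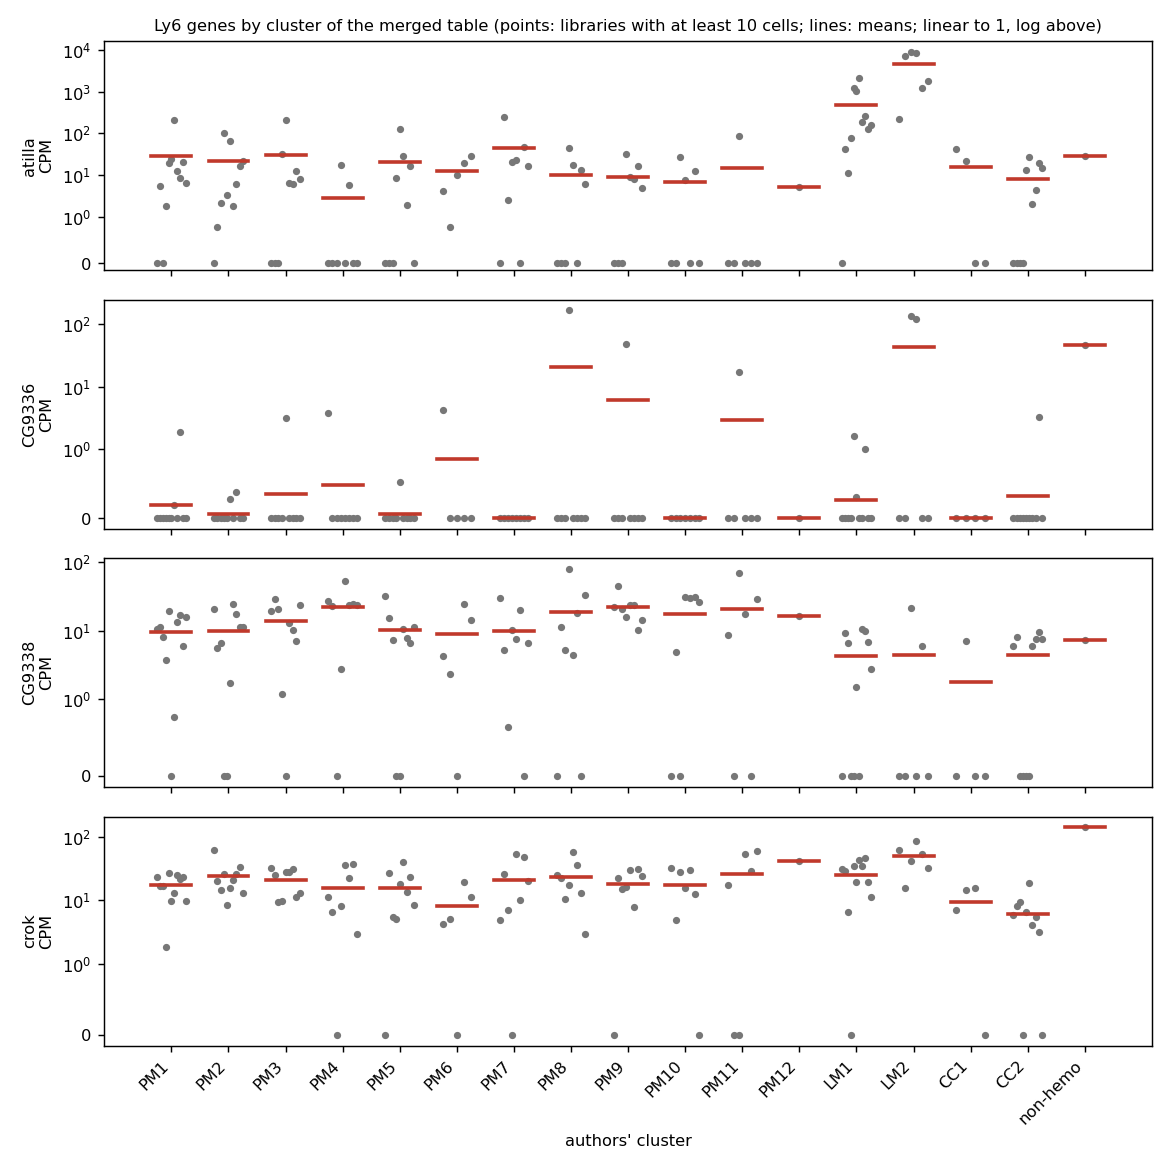
Mean CPM of each gene (vertical axis, linear to 1 and logarithmic above) in the authors' clusters, with each library of at least 10 cells as a point. Atilla stands highest in LM2 (4650 CPM) and LM1 (474 CPM), crok is spread over all clusters between 6.19 CPM in CC2 and 141 CPM in the non-hemo cluster of 1 library, and CG9338 is lowest in CC1 (1.79 CPM).

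Wounding was compared in libraries summed over all cells, with technology as a term in the model. Atilla stood 4.10 ± 0.73 higher on the log2 scale in wounded larvae (SE, 4 against 4 libraries), which missed the threshold in edgeR's quasi-likelihood test (Benjamini-Hochberg adjusted p = 0.063). The 2 groups did not overlap, and 0.326% of the 7660 genes tested were called. With the replicate number as a block, which takes same-numbered preparations as pairs, the difference was 4.05 ± 0.51 and was called (edgeR, adjusted p = 0.00046). In sums like these, a change in the number of cells of a type and a change in the RNA per cell cannot be told apart. The other members that could be tested were not called: CG9338 differed by 0.33 ± 0.29 and crok by 0.52 ± 0.34, both with adjusted p = 0.999. CG9336 had too few UMIs for the test, and twit had none in these libraries.

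Inside the lamellocyte clusters, which were found with atilla among the genes, atilla was also higher after wounding. The summed LM1 and LM2 cells held 0, 42.5, 37.0 and 589 CPM in the unwounded libraries and 1459, 906, 286 and 355 CPM in the wounded ones. Unwounded replicate 4 lay inside the wounded range with 11 UMIs in 13 cells, and in unwounded replicate 2 a single LM1 cell held 32 of the 36 UMIs. Atilla rose by 3.71 ± 0.76 on the log2 scale (edgeR, adjusted p = 0.0055), where 1.8% of 5509 genes were called, 1.69% as higher. The rise was 5.30 ± 0.63 in the 10X Chromium libraries (adjusted p = 0.00052), whereas the inDrops libraries gave 1.11 ± 0.72 (adjusted p = 1.00). The difference of -3.95 ± 1.08 between the technologies did not pass its own test (adjusted p = 0.34, with 0.0843% of genes called), and with DESeq2 the overall difference of 3.12 was not called (adjusted p = 0.58). The other 13 of 15 alternative fits called it. Among them were the replicate block (edgeR, adjusted p = 4.3e-21) and the 8 fits that left out 1 library (edgeR, adjusted p up to 0.0099).

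LM2 itself was unevenly recovered. The unwounded libraries held 0, 0, 23 and 3 LM2 cells, the wounded ones 30, 8, 53 and 30, and the wasp inf. 24 hr ones 8, 12 and 105. In the sums of LM1 and LM2, the share of LM2 cells and the atilla level per cell cannot be told apart. This holds for wounding and for the gap between the technologies. In LM1, after each cell was thinned to 1000 UMIs, an atilla UMI was found in 7.69%, 8.59%, 8.92% and 10.6% of the cells of the wounded libraries. Of the 3 unwounded libraries with enough LM1 cells, the share was 0.885% in replicate 2 and 0 in the others, where 0 of 63 and 0 of 119 cells allow up to 4.76% and 2.52%. At 24 hr of infestation it was 40.6%, 29.0% and 53.4%, so the shares of the 3 conditions did not overlap in LM1.

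Plasmatocyte clusters showed the same direction at a far lower level. PM1 to PM12 together held 0, 1.19, 0.560 and 1.78 CPM of atilla in unwounded libraries and 11.5, 6.06, 16.8 and 10.3 CPM in wounded ones. The groups were separate, and the difference of 3.69 ± 0.56 was called in edgeR (adjusted p = 0.045, with 0.122% of 7379 genes called), but 6 of 8 fits that left out 1 library no longer called it (adjusted p up to 1.00), all but those without unwounded replicate 2 or wounded replicate 2. With the replicate block the adjusted p was 0.00012, and the technologies differed by 0.55 ± 1.43 (adjusted p = 1.00, with 0.0484% of genes called). Crystal cells, which should lack atilla, held 8.09 CPM in unwounded replicate 3 and none in the other unwounded libraries, and 3.85 to 19.2 CPM in wounded libraries, a range that includes all 4 plasmatocyte values.

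The share of plasmatocytes with an atilla UMI, at 1000 UMIs per cell, was 0 in all 4 unwounded libraries (up to 0.164% to 0.984% allowed). In wounded libraries it was 0.746%, 0.385%, 1.63% and 0.791%. In crystal cells of the same libraries it was 0 in both 10X Chromium libraries (up to 2.61% and 2.97% allowed), 1.68% and 2.68% in the inDrops libraries. These crystal cell shares rest on 0 of 115, 0 of 101, 2 of 119 and 3 of 112 cells, so no order between both cell types is drawn. What part RNA from other cells had in these shares was not tested. Without thinning the shares were 1.53% to 3.55% in plasmatocytes and 1.74% to 4.17% in crystal cells of the wounded libraries.

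Many atilla UMIs of the wounded inDrops libraries lay in barcodes that the deposited matrices hold but the merged table does not. In wounded replicate 3, 1054 such barcodes held 2769 of 3178 atilla UMIs (87.1%), at 1140 CPM against 78.9 CPM in the kept cells. Of these barcodes, 610 had a novelty score (log10 genes over log10 UMIs) below the authors' minimum, and they held 2708 of those UMIs. The 87 left-out barcodes with at least 10 atilla UMIs had a median of 6761 UMIs, 31999 CPM of lamellocyte markers other than atilla and 636 CPM of plasmatocyte markers. In the 8 kept cells of the same library with at least 10 atilla UMIs these marker sums were 21502 and 3880 CPM.

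The other libraries differed in this share. Wounded replicate 4 had 270 of its 627 atilla UMIs (43.1%) in left-out barcodes at 86.4 CPM. Per the paper, this library was filtered at a higher minimum of genes per cell than the other inDrops libraries. Its left-out barcodes had a median of 445 genes, so the shares do not come from the same filter. In unwounded replicates 3 and 4 the left-out barcodes held 39 of 62 (62.9%, 15.1 CPM) and 27 of 39 atilla UMIs (69.2%, 25.9 CPM). In the 10X Chromium libraries 124 atilla UMIs lay in 5 of 21 left-out barcodes of wounded replicate 1 and 20 in 3 of 18 of wounded replicate 2. Over all deposited barcodes the difference between wounded and unwounded libraries was 4.55 on the log2 scale (edgeR, adjusted p = 0.098). The part of these barcodes in the gap between the technologies was not tested further.

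**Figure D3:**
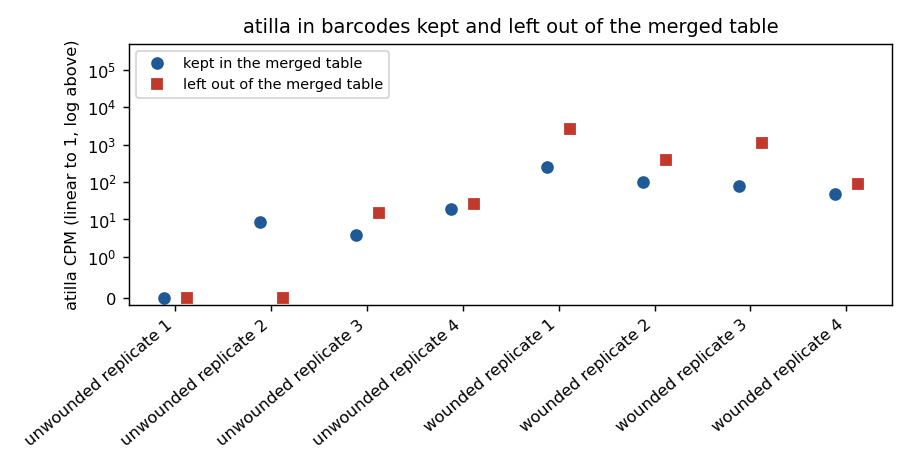
Atilla CPM (vertical axis, linear to 1 and logarithmic above) in the barcodes kept in the merged table and in those left out, for each unwounded and wounded library. In wounded replicate 3 the left-out barcodes stand at 1140 CPM and the kept cells at 78.9 CPM.

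At 24 hr of infestation atilla was far above the unwounded libraries. In the merged table the 3 libraries held 842, 310 and 730 CPM, a mean of 627 ± 281 (SD, n = 3) against 7.88 ± 8.32 (n = 4), with no overlap. Atilla rose by 6.46 ± 0.88 (edgeR, adjusted p = 0.00105), in a comparison where 32.1% of 6732 genes were called across the confounded groups. Within plasmatocyte clusters it stood at 71.2, 15.4 and 123 CPM and rose by 6.44 ± 0.81 (adjusted p = 0.00057, with 32.9% of genes called). The comparison shares the unwounded libraries with the wounding comparison.

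Crystal cells put these plasmatocyte values in scale. They held 13.2 to 30.7 CPM of atilla in the 24 hr libraries. At 1000 UMIs per cell 5.13%, 1.01% and 5.84% of plasmatocytes had an atilla UMI, against 0 of 48 crystal cells (up to 6.25%) in replicate 2 and 3.33% in replicate 3. Without thinning these shares were 17.9%, 4.25% and 11.3% in plasmatocytes and 6.25% and 10.0% in crystal cells. The crystal cell share of replicate 3 rests on 5 of 150 cells, and no order between both cell types is drawn here either.

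Neither CG9338 nor crok passed the test at 24 hr. CG9338 held 9.90, 13.1, 11.2 and 3.21 CPM in unwounded libraries and 4.82, 1.17 and 5.21 CPM at 24 hr, so that only unwounded replicate 4 lay among the infested libraries. The difference was -1.47 ± 0.56 (edgeR, adjusted p = 0.071). It was called, at -2.05 ± 0.51 (adjusted p = 0.016), once cells with at least 10 UMIs of muscle genes were left out, and at -1.65 without unwounded replicate 4 (adjusted p = 0.047). The crok gene held 22.8, 21.8, 12.2 and 1.60 CPM in unwounded libraries and 41.9, 10.5 and 18.4 CPM at 24 hr, which overlap (0.50 ± 0.54, adjusted p = 0.51).

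Between 24 and 48 hr of infestation all 4 members that could be tested rose. Both times were Drop-seq libraries of the same strain, but the larvae were bled at a labelled 96 and 128 hr AEL. Age and time after infestation therefore cannot be told apart in any comparison of these times. Cells were kept from 500 UMIs, and 35.5% of the 7943 genes tested were called, with 19.6% of those tested higher at 48 hr. Atilla rose by 3.50 ± 0.33 (edgeR, adjusted p = 0.00064). The lamellocyte markers other than atilla summed to 877 to 2049 CPM at 24 hr and 17736 to 21877 CPM at 48 hr.

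CG9336 made the steepest step. It held 4.78, 0.064 and 12.4 CPM at 24 hr and 425, 667 and 250 CPM at 48 hr, with no overlap. The rise was 6.20 ± 1.17 (adjusted p = 0.0071) and 6.90 ± 1.05 (adjusted p = 0.0033) without the muscle marker cells, and 8.39 without wasp inf. 24 hr replicate 3. In the kept cells of the Hml>EGFP larvae CG9336 was low, with 0, 0.469, 0 and 0 CPM in unwounded and 2.97, 3.54, 0.193 and 0 CPM in wounded libraries. Over all deposited barcodes CG9336 stood at 1.80 CPM in unwounded replicate 4, on 3 UMIs, and at 4.46 CPM in wounded replicate 3, where 33 of its 34 UMIs lay in left-out barcodes.

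CG9338 and crok moved less. CG9338 held 4.50, 1.09 and 4.85 CPM at 24 hr and 23.9, 29.96 and 22.8 CPM at 48 hr, a rise of 2.90 ± 0.45 (adjusted p = 0.0036). The crok gene held 39.96, 9.87 and 17.2 CPM at 24 hr and 89.2, 97.6 and 79.3 CPM at 48 hr, a rise of 2.12 ± 0.35 (adjusted p = 0.0043). Neither gene overlapped between the times, though the share of all genes without overlap was not counted. Both 48 hr ranges lay above the unwounded and wounded libraries, which were made with other technologies.

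**Figure D4:**
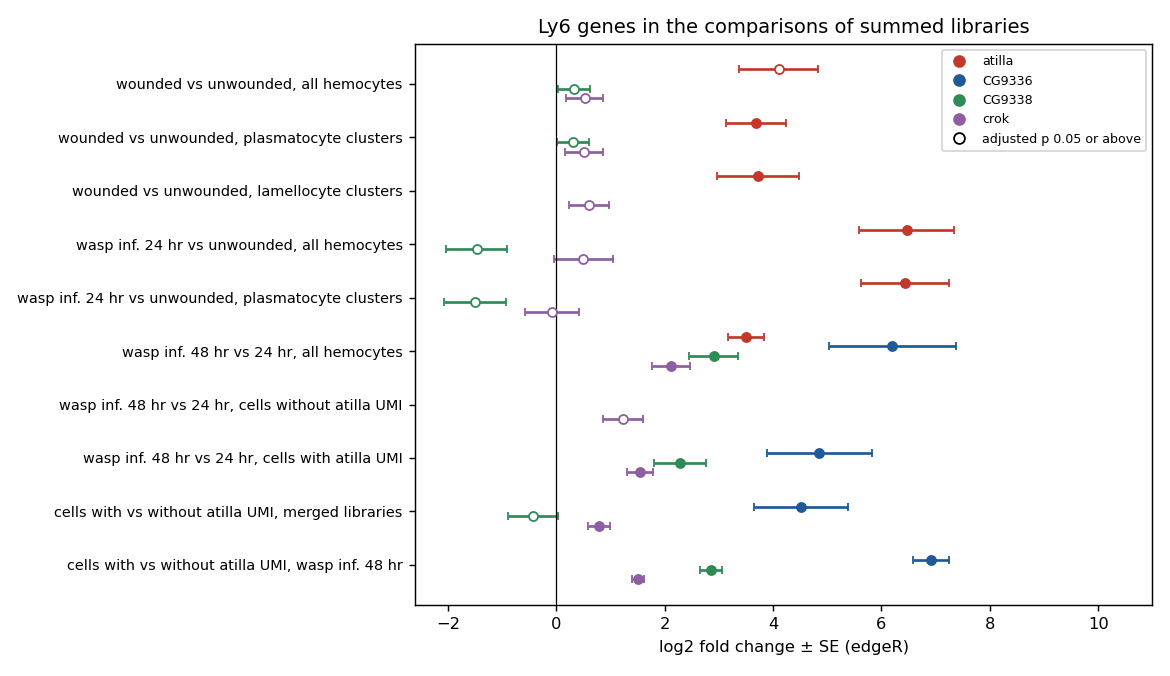
Log2 fold change with its SE (horizontal axis, edgeR) of atilla, CG9336, CG9338 and crok in the 10 comparisons of summed libraries, filled where the adjusted p is below 0.05. Atilla is to the right in each comparison it enters, from 3.50 to 6.46, while CG9336, CG9338 and crok are all filled between 24 and 48 hr (6.20, 2.90 and 2.12) and in cells with against without an atilla UMI at 48 hr (6.91, 2.86 and 1.51).

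To see whether these genes followed atilla within a library, cells with at least 1 atilla UMI were summed apart from cells without one. At 48 hr all 3 stood higher in the cells with atilla. CG9336 held 499, 743 and 268 CPM with and 4.99, 1.67 and 9.05 CPM without an atilla UMI, a difference of 6.91 ± 0.33 (edgeR with library as a term, adjusted p = 2.2e-08). CG9338 held 27.6, 32.6 and 24.1 CPM with and 3.33, 6.67 and 5.85 CPM without, a difference of 2.86 ± 0.20 (adjusted p = 5.8e-07). The crok gene held 97.4, 104 and 81.8 CPM with and 42.4, 43.3 and 46.8 CPM without, a difference of 1.51 ± 0.11 (adjusted p = 9.4e-07). The 2 sets of cells did not overlap for any of these genes, but how many of all genes did so was not counted. Between the sets 57.4% of 8317 genes were called, 28.2% as higher in cells with atilla.

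A shallow cell can lack an atilla UMI by chance, so the split was repeated after thinning each cell to 1000 UMIs. The differences were then 6.22 for CG9336, 2.99 for CG9338 and 1.47 for crok, all called (adjusted p at most 1.01e-05). At that depth 64.3%, 73.0% and 75.5% of 48 hr cells had an atilla UMI and 13.5%, 16.1% and 8.64% a CG9336 UMI. Cells rich in prophenoloxidase (at least 20 UMIs of PPO1 and PPO2), which should lack atilla, had it in 1 of 17 (5.88%), 1 of 10 (10%) and 4 of 17 cells (23.5%). None of them had a CG9336 UMI. Before thinning their median depths were 6834, 4691 and 9399 UMIs, against 6477, 6915 and 7073 UMIs in the other cells.

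CG9336 and crok differed in how they climbed with atilla. Over 48 hr cells with 0, 1, 2 to 4, 5 to 9 and 10 or more atilla UMIs at 1000 UMIs per cell, CG9336 averaged 7.64, 8.81, 94.8, 467 and 1086 CPM over the 3 libraries. CG9338 averaged 3.98, 1.37, 6.59, 26.0 and 50.8 CPM. Crok averaged 43.2, 54.0, 74.8, 92.7 and 142 CPM. CG9336 was thus low up to 1 atilla UMI and climbed above it. Crok was present in cells without atilla, and its mean climbed by small steps. The mean of CG9338 was higher in the groups from 5 atilla UMIs than in those below. Apart from the cells rich in prophenoloxidase, which had none, only 35, 38 and 60 cells had a CG9338 UMI at this depth. Its lower groups therefore rest on few UMIs, and no shape is drawn from them. The libraries differed: in replicate 3 CG9338 did not climb further in the last group, and in replicate 2 crok was lower with 1 atilla UMI than with none.

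**Figure D5:**
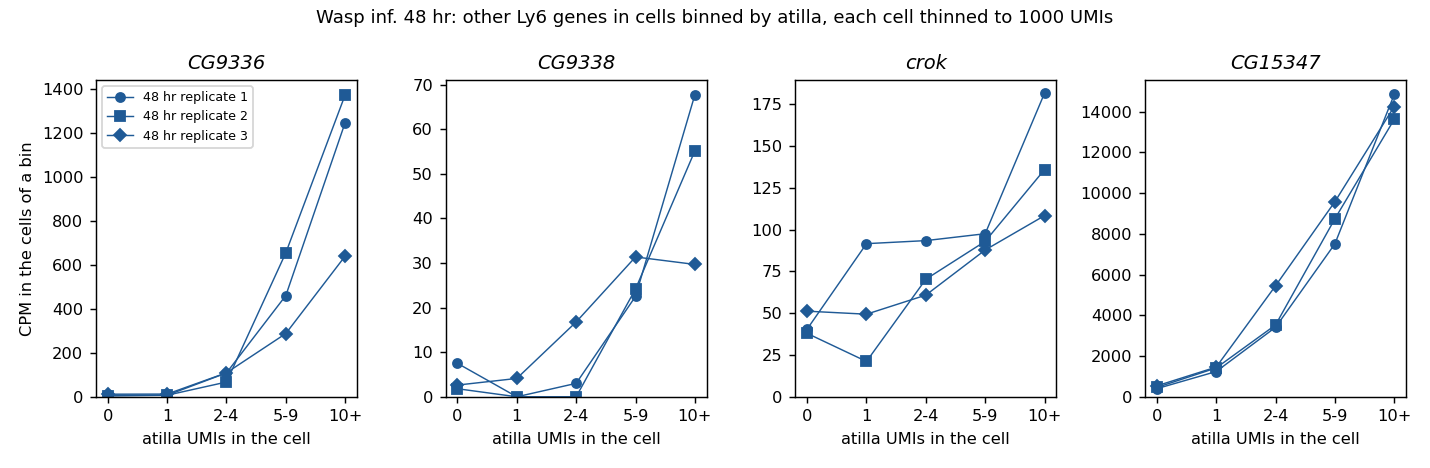
CPM of the Ly6 genes (vertical axis, linear) in 48 hr cells grouped by their atilla UMIs after thinning to 1000 UMIs (horizontal axis), with 1 line for each library. Averaged over the libraries, CG9336 goes from 7.64 to 1086 CPM, CG9338 from 3.98 to 50.8 CPM and crok from 43.2 to 142 CPM between cells without atilla and cells with 10 or more UMIs.

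Counted in single cells, high CG9336 and CG9338 went with atilla and crok did so less strictly. Of the 943 cells of the 48 hr libraries with at least 3 CG9336 UMIs, none lacked atilla and the lowest had 4 atilla UMIs, with a median of 120 against 26 over all cells. The same was true of the 145 cells with at least 3 CG9338 UMIs, whose lowest atilla count was 9 and whose median was 192. Of the 557 cells with at least 3 crok UMIs, 10 lacked an atilla UMI, whereas 16.99% of all cells did. Deep cells have more UMIs of every gene, and these counts were not corrected for depth.

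CG9336 did not mark all cells with much atilla. Of the 830, 1188 and 1863 cells of the 48 hr libraries with at least 20 atilla UMIs, 61.3%, 62.1% and 73.8% had no CG9336 UMI. The tenth of these cells with the most CG9336 held 63.8%, 69.6% and 89.2% of its UMIs, and the highest single cells held 138, 340 and 119. As a description over the 1866, 2055 and 3113 cells thinned to 1000 UMIs, Spearman's rho with atilla was 0.473, 0.463 and 0.262 for CG9336, 0.123, 0.138 and 0.088 for CG9338 and 0.146, 0.133 and 0.085 for crok, where the cells of a rho share 1 library.

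In the merged libraries only CG9336 and crok were higher in cells with atilla, over 8 libraries with at least 10 such cells. CG9336 held 51.1, 36.3, 0 and 0 CPM with atilla in wounded replicates 1 to 4 and 0, 0.443, 0.211 and 0 CPM without. At 24 hr it held 11.2, 0.420 and 40.7 CPM with and 1.95, 0 and 4.74 CPM without. Its difference was 4.52 ± 0.87 (edgeR, adjusted p = 0.0071, with 9.57% of 8138 genes called, 5.01% as higher and 4.56% as lower), and 5.21 ± 0.87 (adjusted p = 0.0028) without the muscle marker cells. CG9336 UMIs were at 0 in both sets only in wounded replicate 4 and unwounded replicate 3.

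The level of crok was higher with atilla in 7 of the 8 libraries. It held 45.4, 38.7, 34.3 and 19.9 CPM with and 28.0, 26.2, 21.5 and 10.0 CPM without atilla in the wounded libraries, and 46.7, 21.4 and 35.2 against 38.3, 8.33 and 13.2 CPM at 24 hr, while unwounded replicate 3 held 0 against 12.2 CPM. The difference of 0.78 ± 0.20 was called (adjusted p = 0.027) but was lost in 5 of 8 fits without 1 library (adjusted p up to 0.11, all but those without unwounded replicate 3, wounded replicate 2 or wasp inf. 24 hr replicate 1), after thinning (1.03, adjusted p = 0.066), within LM1 (0.28, adjusted p = 0.50) and within plasmatocyte clusters (0.42, adjusted p = 0.79). CG9338 was not called (-0.43 ± 0.46, adjusted p = 0.66).

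Whether the tie to atilla changed with time was tested as the difference between 48 and 24 hr of the difference between cells with and without atilla, in which 22.9% of 7739 genes were called. The tie was wider at 48 hr for CG9338, by 1.76 ± 0.43 (edgeR, adjusted p = 0.014), and for CG9336, by 3.81 ± 0.65 (adjusted p = 0.0022). For CG9336 it was no longer called without the muscle marker cells (1.96 ± 1.10, adjusted p = 0.24), while for CG9338 it was (2.09 ± 0.45, adjusted p = 0.0080). For crok the difference was 0.33 ± 0.21 (adjusted p = 0.30).

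Each set of cells was also followed over time, again without matching the atilla level of the cells. In cells with atilla, CG9336 rose from 24 to 48 hr by 4.85 ± 0.97 (adjusted p = 0.012), CG9338 by 2.28 ± 0.48 (adjusted p = 0.015) and crok by 1.55 ± 0.24 (adjusted p = 0.0053), where 23.9% of 7335 genes were called, 13% as higher. Without 48 hr replicate 2 the adjusted p was 0.051 for CG9336 and 0.068 for CG9338, and without 48 hr replicate 1 it was 0.057 for CG9338. Without wasp inf. 24 hr replicate 3 the rises were 7.11 for CG9336 and 3.55 for CG9338, both called. In cells without an atilla UMI only crok could be tested: it held 32.0, 7.89 and 12.3 CPM at 24 hr and 42.4, 43.3 and 46.8 CPM at 48 hr. These do not overlap, and the difference of 1.23 ± 0.37 missed the threshold (adjusted p = 0.076, with 9.75% of 6545 genes called, 5.41% as higher), though DESeq2 called it (adjusted p = 0.028).

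In the merged table CG9336 was confined to few cells. Of its 305 UMIs, LM2 held 157 (51.5%), the plasmatocyte cluster PM8 107 (35.1%) and the non-hemo cluster 19 (6.23%). Of the 14 cells with at least 3 CG9336 UMIs, 11 were LM2 cells with 57 to 256 atilla UMIs. The PM8 UMIs came largely from 2 cells of wasp inf. 24 hr replicate 3 with 53 and 52 CG9336 UMIs, 25 and 24 CG9338 UMIs and 10 and 0 atilla UMIs. These 2 cells held 396 and 351 UMIs of the muscle genes Mhc, Act57B, Mlc2 and up, and no UMI of the plasmatocyte gene Hml.

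Among the clusters before 48 hr CG9338 averaged 22.2 ± 16.4 CPM in PM4 (n = 8) and 22.1 ± 10.6 CPM in PM9 (n = 8), against 4.34 ± 4.39 CPM in LM1 (n = 11) and 4.50 ± 8.46 CPM in LM2 (n = 6). These means weigh libraries equally: pooled over all cells LM2 held 26 UMIs or 16.2 CPM, of which 17 UMIs came from wasp inf. 24 hr replicate 3, above the 13.04 CPM of PM4 and below the 18.8 CPM of PM9. Pooled PM8 was the highest at 33.4 CPM, with 49 of its 74 UMIs in the 2 cells with muscle genes, and LM1 stood at 3.80 CPM. The places of LM2, PM4 and PM8 thus rest on how libraries are weighed. In cells with atilla it held 0, 8.20, 4.58 and 8.53 CPM in the wounded libraries, each below the 14.5, 15.9, 9.90 and 14.3 CPM of the cells without. At 24 hr the order was turned in each library, with 5.19, 1.26 and 10.4 CPM against 4.54, 1.15 and 3.61 CPM, by margins that in the first 2 are small. In the last, 25 of the 43 UMIs in cells with atilla lay in 1 of the cells with muscle genes described above. Wasp inf. 24 hr replicates 1 and 2 held only 13 and 17 CG9338 UMIs in all their cells. Over the libraries tested the difference was not called (-0.43 ± 0.46, edgeR, adjusted p = 0.66), so no order is drawn from these values.

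Crok had UMIs in every cluster. It averaged 48.8 ± 24.7 CPM in LM2 (n = 6), 25.0 ± 14.8 CPM in LM1 (n = 11) and 6.19 ± 5.45 CPM in the crystal cell cluster CC2 (n = 10). Within the lamellocyte clusters it held 31.4, 29.2, 13.6 and 0 CPM in unwounded and 41.9, 51.0, 24.3 and 13.6 CPM in wounded libraries, which overlap (0.61, edgeR, adjusted p = 0.89). CG9336 was too sparse there for the main test, with 17.9, 26.9, 0 and 0 CPM in the wounded libraries and none in the unwounded ones. With the replicate block it entered and was called (6.46 ± 1.29, adjusted p = 3.3e-05), which rests on the 10X Chromium libraries alone.

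Before 48 hr twit had few UMIs, and the 48 hr table had no row for it, so that it was not analysed there. It had no UMI in the deposited 10X Chromium and inDrops matrices, and the 24 hr table held 15, 1 and 18 UMIs, or 4.22, 0.064 and 0.96 CPM. These UMIs lay in 2, 1 and 1 cells, with 7, 8, 1 and 18 UMIs each. The cell with 18 and that with 8 UMIs belonged to the non-hemo cluster, and the cell with 7 UMIs had 105160 UMIs in all and was not in the merged table. No comparison of twit was made.

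Set against a wider list of 22 other Ly6 genes, drawn from general knowledge of the family and not from an annotation in the files, the members were not alone in moving. In the main edgeR fit none of 9 other genes tested was called after wounding in all cells or in plasmatocytes. None of 5 was called in lamellocyte clusters. At an unadjusted p below 0.05 these counts were 1 (CG15347), 0 and 2 (CG15347 and CG6583), beside 3.45%, 2.33% and 7.5% of all genes tested. DESeq2 called 1 (CG15347), 0 and 0, beside 0.849%, 0.285% and 1.52% of all genes tested. In lamellocyte clusters 7 of 15 alternative fits called CG15347, among them the replicate block (edgeR, adjusted p = 2.7e-13). At 24 hr against unwounded 1 of 8 rose (CG15347) and 1 fell (CG8501), where 15.2% of all genes tested were higher and 16.9% lower. Between 24 and 48 hr 5 of 12 rose (CG15347, CG6583, CG8501, cold and crim) and 1 fell (bou), beside 19.6% and 15.9% of all genes tested. In cells with against without atilla, 1 of 12 was higher in the merged libraries and none lower, beside 5.01% and 4.56% of all genes tested, and at 48 hr 7 of 14 were higher and 6 lower, beside 28.2% and 29.2% of all genes tested. Cold, crim and bou are, like crok, known from septate junctions.

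CG15347, a Ly6 gene on chromosome X (bases 8458494 to 8460898), kept closest to atilla of the list. It held 20.6, 38.3, 30.5 and 54.5 CPM in unwounded and 289, 112, 145 and 59.2 CPM in wounded libraries, 735, 751 and 980 CPM at 24 hr and 6241, 7739 and 8084 CPM at 48 hr, with no overlap between conditions in the kept cells. Over all deposited barcodes CG15347 stood at 1233 CPM in wounded replicate 3, where 8643 of its 9393 UMIs (92.0%) lay in left-out barcodes, which is above all 3 libraries at 24 hr. After wounding its difference of 2.02 was not called in edgeR (adjusted p = 0.20) and was called with DESeq2 (adjusted p = 0.0033). In cells with atilla it was higher by 3.77 ± 0.56 in the merged libraries (adjusted p = 0.00092) and by 5.13 at 48 hr, and its rho with atilla over 48 hr cells was 0.817, 0.818 and 0.791. Within plasmatocyte clusters of the merged libraries the difference was not called (edgeR, adjusted p = 0.53). CG15347 was also found in more cells than atilla at 24 hr. There 126, 1243 and 2369 kept cells, not thinned, had a CG15347 UMI and 71, 228 and 734 an atilla UMI.

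CG8501 went the other way at 48 hr, being lower in cells with atilla by -1.48 on the log2 scale. It was the most abundant gene of the list in unwounded larvae, at 2541, 3348, 3047 and 1901 CPM. The Drop-seq libraries held 97.4, 76.8 and 76.1 CPM at 24 hr and 912, 784 and 1069 CPM at 48 hr. The 24 hr libraries were thus the lowest and separate from both others, with a fall of -4.84 ± 0.36 from unwounded in the merged table (edgeR, adjusted p = 6.7e-05) and a rise of 3.45 ± 0.18 to 48 hr (adjusted p = 0.00014).

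Over 122 sums of a library and a cluster, with each library's mean taken out, the genes most like atilla among 5446 were CG14610 (Pearson's r 0.83), CG2556 (0.801), alphaTub85E (0.797), betaTub60D (0.772) and mthl4 (0.761). The tubulins alphaTub85E and betaTub60D are known lamellocyte genes. Of the Ly6 genes, CG15347 followed at rank 91 (0.498), CG14273 at rank 111 (0.473) and crok at rank 188 (0.409). Next came cold at rank 200 (0.399), CG7778 at rank 227 (0.384), CG8501 at rank 558 (0.257) and CG9336 at rank 605 (0.247). CG9338 stood at rank 5086 (-0.252). The genes most like CG9336 were AdamTS-A (0.458), shot (0.435), cib (0.416), CG17646 (0.405) and CG1208 (0.385), and those most like CG9338 were NimB2 (0.525), slv (0.522), PGAP1 (0.450), Spc105R (0.443) and Hat1 (0.434). For crok luna came first (0.583), before CG7956, kuz, JHDM2 and Zasp52. These are descriptions over sums that share libraries and depth.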

How the data were processed

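Per the labels, the authors deposited UMI counts per cell and gene from 10X Chromium (Cell Ranger, 3.1.0 in the submitters' notes), inDrops (bcbio-nextgen with umis and RapMap) and Drop-seq (Drop-seq tools and STAR), with FlyBase r6.21 or BDGP6 references. They removed cells with few UMIs or genes, a low novelty score or, in 10X, many mitochondrial UMIs, kept in the merged table genes seen in at least 2 of 3 conditions, and clustered the cells with Seurat and Harmony. Doublets were not called here.

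Here the counts were summed per library, class or cluster and given as CPM. Drop-seq cells were kept with at least 500 UMIs, 200 genes and at most 30% mitochondrial UMIs. Sums were tested with edgeR 4.0.16 (quasi-likelihood, TMM, Benjamini-Hochberg over all genes tested, call at 0.05), requiring at least 10 cells per sum, after checking the fits on simulated data, in R 4.3.3. Alternatives were DESeq2 1.42.0, other size factors, no filter on low counts, each library left out, each technology alone, thinned cells and a replicate block. The tests without muscle marker cells, over all deposited barcodes, without the non-hemo cluster, with unwounded libraries of 1 technology and of differences between times or technologies were added after seeing the data. The members and gene lists were chosen with earlier results of these data known. Named genes were the 5 members, other Ly6 genes that were called or had at least 100 UMIs, and for each member the 5 genes most like it.

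Unwounded and wounded libraries with the same number deviated together within technology over all cells. The correlation was 0.608 in 10X Chromium and 0.397 in inDrops, where both shared 1 multiplexed sample. Each technology gave only this single value, and depth went the same way. Median UMIs per cell were 1151 (unwounded) and 1916 (wounded) in replicate 1 against 4310.5 and 3682 in replicate 2. In inDrops they were 2783 and 2783 in replicate 3 against 1141 and 2342 in replicate 4. Whether shared preparation or depth lay behind it was not tested, so the replicate block takes the pairs from the numbers alone. Each library is a pool of larvae from separate preparations as far as the labels say, and p-values measure the spread between libraries, which may be technical. Floors (3 UMIs) and upper limits cover counting error only. Where groups are said not to overlap, the share of all genes without overlap was not counted. The labels give 128 hr AEL for the 48 hr libraries and the name of their file 120 hr. Of the inDrops matrices, 7 library indices without a label were not used.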

Additional observations from a re-analysis of the deposited data

Results flagged for a closer look

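Among 30 groups of 4 libraries examined for a library far from the others, 7 were flagged. Chance flags about 1 in 20 groups, but in 5 of the 7 the other 3 libraries had no UMI, so that any UMI in the fourth sets the flag and that rate does not hold. Atilla in the lamellocyte clusters of unwounded replicate 4 stood at 589 CPM, on 11 UMIs in 13 cells, and in the crystal cells of unwounded replicate 3 at 8.09 CPM where the others had none. CG9336 stood apart in unwounded replicate 2 at 0.469 CPM over all cells and 0.593 CPM in plasmatocytes, in the plasmatocytes of wounded replicate 2 at 0.774 CPM and in the crystal cells of wounded replicate 3 at 3.20 CPM, each on 1 to 6 UMIs with the other libraries at 0. The first 2 of these are 1 library counted in all cells and in plasmatocytes. CG9338 in the plasmatocytes of wounded replicate 3 was low at 10.3 CPM.

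The difference between cells with and without an atilla UMI was itself different at 48 than at 24 hr, by an interaction term in edgeR, for CG9336 (3.81 on the log2 scale), CG9338 (1.76), CG15347 (2.66) and CG8501 (-2.21). For CG9336 it was not called without cells that held muscle genes. The cells with atilla were not matched for atilla level between the times.

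Barcodes that were deposited but left out of the merged table held atilla at 2668, 380, 1140 and 86.4 CPM in wounded replicates 1 to 4. Left-out barcodes of the unwounded libraries held at most 25.9 CPM. In wounded replicate 3 they also held CG9336 at 13.6 CPM.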

How the results depend on the processing

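Of 357 results of a member under an alternative, 321 kept their direction and their side of the threshold, 23 lost a call, 8 gained one and 5 turned in sign. Of these 5, crok at 24 hr against unwounded in plasmatocytes turned 4 times, to 0.065 without the filter on low counts and within -0.32 to 0.21 with 1 library left out, and CG9338 in merged cells with against without atilla turned once, within -0.92 to 0.011. Of the other Ly6 genes, CG15347 after wounding was -0.072 in plasmatocytes with 10X Chromium only and -0.25 in lamellocyte clusters with inDrops only, and CG8501 there was -0.013 with at least 30 cells per library (-0.013 to 0.48 with 1 library left out) and in merged plasmatocytes with against without atilla 0.12.

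Counts of genes called moved more. After wounding in all cells 25 became 65 with DESeq2, 15 without the filter and 153 with the replicate block, which takes same-numbered libraries as pairs. With 10X Chromium only it became 0 (101 at an unadjusted p below 0.05). In plasmatocytes 9 became 21 with DESeq2, 106 with the replicate block, 0 with 10X Chromium only (41 at an unadjusted p below 0.05) and 15 with inDrops only. In lamellocyte clusters 99 became 195 without the filter, 272 with the replicate block and 24 with inDrops only. In cells without an atilla UMI at 48 against 24 hr 638 became 1181 without the filter. In cells with one 1752 became 1101 with a replicate block, and over all cells 2052 genes were called with it, although numbers do not pair these libraries (correlations from -0.190 to 0.037). The block let crok be called in cells without atilla (adjusted p = 0.033, edgeR). In cells with against without atilla 779 became 1230 from 3 atilla UMIs and 5 within plasmatocytes, and at 48 hr 4774 became 2828 after thinning.

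With 1 library left out the counts ran from 2 to 32 and 2 to 19 after wounding in all cells and plasmatocytes, 93 to 150 in lamellocyte clusters, 954 to 2289 and 966 to 2337 at 24 hr against unwounded, 1370 to 3668 at 48 against 24 hr, 295 to 1455 and 520 to 2190 in its cells without and with atilla, and 461 to 1348 and 3824 to 4086 between cells with and without atilla. The cause of these moves was not tested.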
